A study of Mus musculus with 7 samples.

Results

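Smooth muscle and pericyte genes were examined as a group of 9 among the 31531 genes of the table, chosen by their symbols. They comprise 5 genes for contractile proteins, *Acta2*, *Tagln*, *Myl9*, *Cnn1* and *Myh11*, and 4 genes for surface and signaling proteins of mural cells, *Mcam*, *Notch3*, *Rgs5* and *Cspg4*. All 9 were present in the table, and 8 of them passed the filter for testing, a mean of at least 5 normalized counts. RNA was measured in muscle fibers from 4 WT and 3 dyW fetuses at embryonic day 17.5, with 1 library per fetus. The dyW fetuses were homozygous for a disrupted *Lama2* gene, which codes for the laminin-α2 chain, and were obtained together with WT fetuses by crossing heterozygous C57BL/6 mice. In this model the disruption is present in every cell of the fetus, so it is not specific to fibers or to vessels. Fibers of the epaxial muscles, the muscles along the back, were freed with dispase and collagenase and collected from a strainer, and their lysates were turned into SMART-seq2 libraries with Nextera. The preparation was not sorted for any vascular cell.

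Smooth muscle cells surround arteries and veins, and pericytes surround capillaries, where they share a basement membrane with the endothelium. Both are mural cells, which are recruited along growing vessels by PDGF-B from endothelial cells and are matured by Notch signals. Contractile genes of smooth muscle are switched on by serum response factor (SRF) with myocardin at a DNA element named the CArG box. Smooth muscle actin (*Acta2*) is also made by developing skeletal muscle fibers and by activated fibroblasts, so it marks more than vessels.

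The promoters of *Acta2* and *Myl9* are shown because these genes had the highest levels of the group and varied together across libraries, and that of *Cnn1* because it had the lowest limma adjusted *P*-value of the tested members. The sequences are the 250 bases before the start of each gene on its own strand, taken from RefSeq on GRCm38.p6, at chr19:34255374-34255623 (minus strand), chr2:156775214-156775463 (plus strand) and chr9:22099003-22099252 (plus strand). Capitals mark matches to the CArG box with at most 1 mismatch.

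Acta2: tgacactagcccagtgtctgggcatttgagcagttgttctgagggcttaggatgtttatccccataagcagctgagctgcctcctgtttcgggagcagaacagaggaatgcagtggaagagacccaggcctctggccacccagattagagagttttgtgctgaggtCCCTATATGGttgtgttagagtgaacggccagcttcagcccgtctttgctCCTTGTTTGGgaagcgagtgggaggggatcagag
Myl9: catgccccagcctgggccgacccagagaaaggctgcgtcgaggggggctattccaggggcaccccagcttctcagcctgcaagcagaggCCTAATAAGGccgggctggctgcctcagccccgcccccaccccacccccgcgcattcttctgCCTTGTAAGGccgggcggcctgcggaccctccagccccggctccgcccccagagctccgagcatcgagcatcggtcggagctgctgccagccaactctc
Cnn1: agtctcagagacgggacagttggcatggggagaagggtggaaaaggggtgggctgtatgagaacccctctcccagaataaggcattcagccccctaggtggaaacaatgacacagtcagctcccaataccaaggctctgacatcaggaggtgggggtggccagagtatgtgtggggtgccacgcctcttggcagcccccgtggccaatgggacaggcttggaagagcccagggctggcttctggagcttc

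A promoter was found in the RefSeq table for 7 of the 9 members, all but *Tagln* and *Myh11*. A perfect CArG box lay in 1 of the 7, that of *Myl9*, beginning 161 bases before the start, against 1.47% of all 32851 promoters of this length. With 1 mismatch allowed, 3 of the 7 held a match, *Acta2*, *Myl9* and *Cspg4*, against 18.6% of all promoters. The matches of *Acta2* began 84 and 34 bases before the start, and the further match of *Myl9* began 99 bases before it. The core motif of RBPJ, the DNA-binding partner of Notch, searched as TGGGAA on both strands, was found in the promoter of *Acta2* alone, where it overlaps the end of the last capitalized stretch. It occurred in 21.6% of all promoters. The GC content of the 7 promoters ranged from 53.6% to 73.6%, beside a median of 52.4% over all promoters. These matches describe letters in a window and not occupied sites.

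On GRCm39, the build of the table, 4 of the 9 members lie on chromosome 9, namely *Tagln* (45840909 to 45847404), *Cnn1* (22010512 to 22020926), *Mcam* (44045504 to 44054025) and *Cspg4* (56772317 to 56807187). *Acta2* lies on chromosome 19 (34217737 to 34232990), *Myl9* on chromosome 2 (156617084 to 156623579), *Myh11* on chromosome 16 (14012399 to 14109236), *Notch3* on chromosome 17 (32339794 to 32385893) and *Rgs5* on chromosome 1 (169483036 to 169524887). Exons of 6 members overlap exons of a gene on the opposite strand, most widely those of *Tagln* with Gm48529 (1241 bases) and those of *Cnn1* with *Elof1* (961 bases). The strand setting of the counting is not given in the sources used here, so the reads of such pairs cannot be told apart. *Myh11*, *Rgs5* and *Cspg4* have no such overlap.

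Between 470804 and 2220813 reads were counted on genes in the WT libraries, against 3663905 to 18297106 in the dyW libraries. A single read was worth between 2.05 and 5.33 normalized counts in WT, and between 0.0974 and 0.488 in dyW. *Lama2* held 90.6 to 110.6 normalized counts in WT, 4.29 in dyW1 and 6.07 in dyW2, but 139.7 in the third library of the group, which goes against its label and is named here the library labelled dyW3. The WT levels of *Lama2* rest on 17 to 51 reads and were 0.914 to 1.61 times the level of nasal receptor genes given below. They are therefore a weak yardstick of genotype. In dyW1, 4 of 8 skeletal fiber markers (*Myh3*, *Myh8*, *Ckm*, *Actn2*) were at 0 and the summed level of the 8 was 26.3 normalized counts, beside 2388 to 77233 in WT, 9399 in dyW2 and 5794 in the library labelled dyW3. *Acta1*, *Myl1*, *Tnnt3* and *Mylpf* rested on 42, 42, 64 and 122 reads in dyW1, where 56.4% of all genes had a read. dyW1 therefore held the defining markers of its labelled cell type at very low or undetected levels. The median log2 fold change of the 25791 tested genes was −1.99, so that a gene at the middle of the table was lower in dyW by this amount. This median was −0.98 once every library had an equal total, and quantile normalization brought it to 0.06.

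No member passed the thresholds of an adjusted *P*-value under 0.01 and a log2 fold change beyond 1.5 in either direction. In the limma fit, 0 of 8 tested members were called lower and 0 higher, where 18.7% of all tested genes were called lower and 0.0659% higher. With limma-voom on reads recovered from the table the counts were also 0 and 0, against 20.6% and 0.264% of all tested genes, and 3 of the 8 had an unadjusted *P*-value under 0.05 in the limma fit, against 44.3% of all tested genes. At an adjusted *P*-value under 0.05, *Cnn1* and *Myh11* were lower in dyW, 2 of 8 against 29.6% of all genes, and 0 were higher, against 1.0%. The median log2 fold change of the 8 members was −1.89, close to that of all genes, and 4 of the 8 lay below the median of all genes. Without WT2, WT4 or dyW2, limma called 0 genes of the whole table in either direction, with 8215, 8238 and 9993 genes at an unadjusted *P*-value under 0.05, so the calls given for other genes also rest on these libraries. They rest on the deposited scaling too, since with equal library totals 0 genes of the table were called (9020 at an unadjusted *P*-value under 0.05), and after quantile normalization 2 were called lower and 0 higher. In bulk RNA, fewer cells of a type and less RNA per cell cannot be told apart.

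Within this range the members took different courses. *Acta2* and *Myl9* varied more between libraries of a group than between the groups, *Cnn1*, *Myh11* and *Tagln* were near or at 0 in most dyW libraries, and *Mcam* was higher in all 3 dyW libraries than in any WT library. *Notch3*, *Rgs5* and *Cspg4* spread widely within each group.

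**Figure D1:**
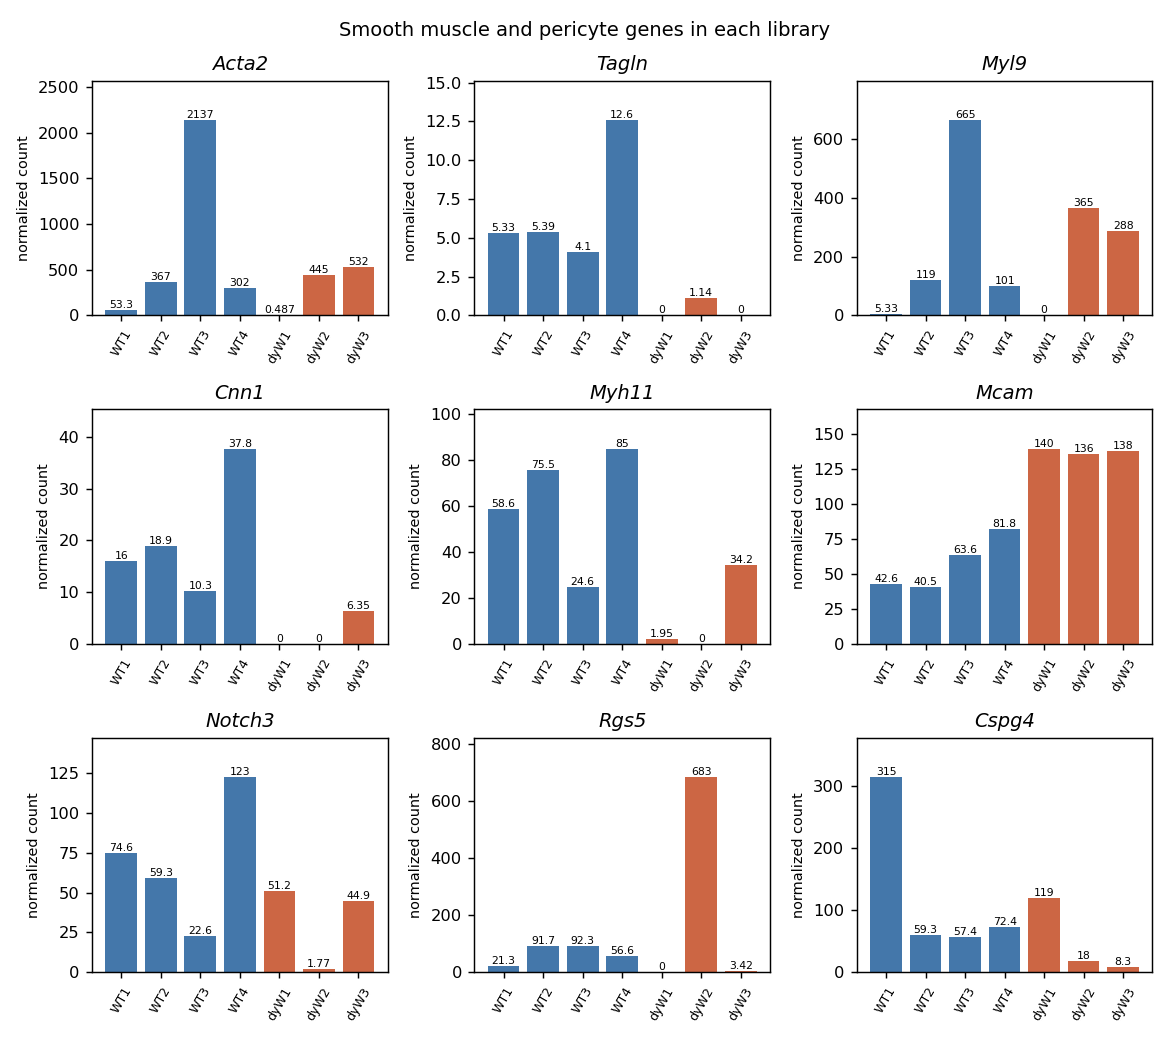
Normalized count (vertical axis, linear from 0, own scale in each panel) of the 9 members in the 4 WT libraries (blue) and the 3 libraries labelled dyW (orange), with 1 bar and its value per library. *Acta2* peaks in WT3 at 2137, *Rgs5* in dyW2 at 683 and *Cspg4* in WT1 at 314.5, whereas *Mcam* stands at 135.6 to 139.6 in dyW and at 40.5 to 81.8 in WT.

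*Acta2*, the actin of the smooth muscle contractile apparatus, held 53.3, 367, 2137 and 302 normalized counts in WT1 to WT4, and 0.487, 445 and 532 in dyW1, dyW2 and the library labelled dyW3. The groups overlap, WT3 is the highest library and dyW1 the lowest, and the WT libraries alone span a 40.1-fold range. The difference was −2.25 on the log2 scale (SE 2.05, 95% interval −6.91 to 2.41, adjusted *P* = 0.429 by limma). Exact two-sided permutation of the mean normalized counts gave *P* = 0.857. Without dyW1 the log2 fold change was 0.53, so its negative sign rested on that library.

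*Myl9*, the regulatory light chain through which smooth muscle myosin is activated, held 5.33, 119, 665 and 101 normalized counts in WT1 to WT4, and 0, 365 and 288 in dyW1, dyW2 and the library labelled dyW3. Its high and low libraries were those of *Acta2*, with WT3 highest in WT and dyW1 lowest of all, and the groups overlap. A log2 fold change of −0.84 (SE 2.21, adjusted *P* = 0.795 by limma) turned to 1.94 without dyW1. The means of the groups, 222 ± 299 (SD, n = 4) for WT and 218 ± 192 (SD, n = 3) for dyW, were far less apart than the libraries within a group. *Myl9* amounted to 31.1% to 33.3% of the *Acta2* normalized count in WT2 to WT4 and to 10% in WT1, where it rests on 1 read, beside 81.9% in dyW2 and 54.1% in the library labelled dyW3.

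The 5 genes whose levels ran most nearly in proportion to *Acta2* over the 7 libraries, by the SD of the log2 ratio among 6105 genes with a mean of at least 50, all code for proteins of skeletal muscle. They were *Myl1*, a myosin light chain of fast fibers, with an SD of 0.66, *Tnni2*, the fast troponin I, with 0.73, *Myoz2* with 0.77, *Myoz1* with 0.84 and *Ldb3* with 0.86, the latter 3 being Z-disc proteins. The median SD over all 6105 genes was 3.67. *Myl1* held 106.6, 2748, 9906 and 1913 normalized counts in WT1 to WT4 and 4.09, 2502 and 1729 in dyW1, dyW2 and the library labelled dyW3. *Acta2* and *Myl9* therefore peaked in the same WT library as these fiber genes and, with them, stood at or near 0 in dyW1. The 7 points share depth and library, and whether the fibers were the source of the *Acta2* and *Myl9* reads was not tested.

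**Figure D2:**
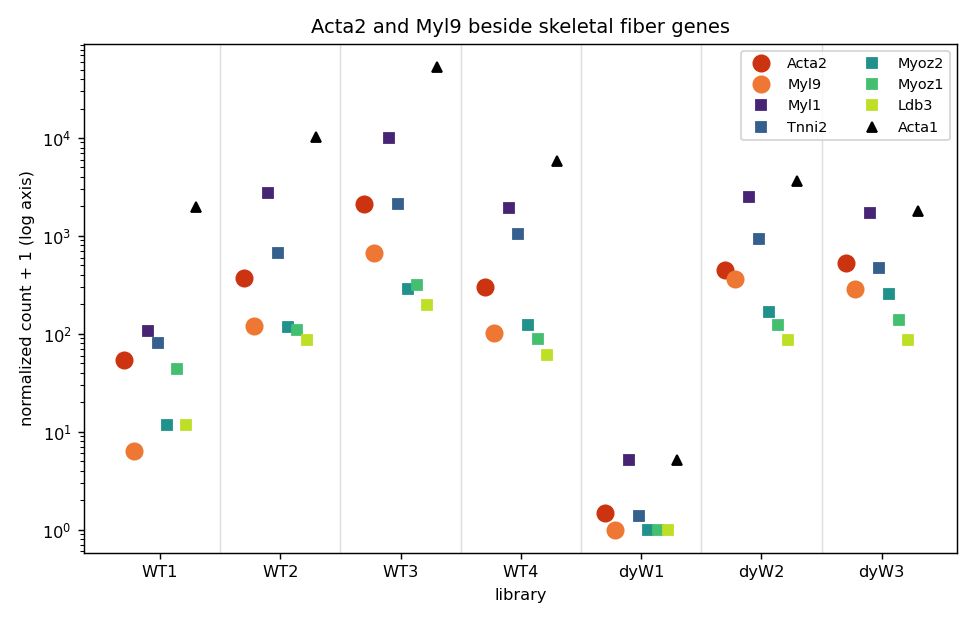
Normalized count plus 1 (vertical axis, log scale) in each of the 7 libraries (horizontal axis) for *Acta2* and *Myl9* (circles), the 5 genes most nearly proportional to *Acta2* (squares) and the skeletal actin *Acta1* (triangles), 1 point per gene and library. All of them are highest within WT in WT3 and lowest of the 7 libraries in dyW1, where *Acta2* is at 0.487 and *Myl1* at 4.09.

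*Acta1*, the actin of skeletal fibers, is closely similar to *Acta2* in its coding sequence, and reads that match several actin genes were not counted because only uniquely mapped reads were assigned. *Acta2* amounted to 2.70%, 3.60%, 4.03% and 5.17% of the *Acta1* normalized count in WT1 to WT4, and to 11.9%, 12.1% and 29.5% in dyW1, dyW2 and the library labelled dyW3. The groups do not overlap in this ratio, which was chosen after its values were seen and was not tested, and the dyW1 value rests on 5 *Acta2* and 42 *Acta1* reads. Of the 5 other actin genes, 0 were called by limma, against 18.7% of all tested genes called lower, or by limma-voom, and 3 of them, *Actg2*, *Actb* and *Actg1*, were lower in dyW at an adjusted *P*-value under 0.05, against 29.6% of all tested genes. *Actg2*, the second smooth muscle actin, held 5.33 to 80.0 normalized counts in WT and 0, 0 and 4.40 in the 3 dyW libraries (log2 fold change −3.35, SE 1.07, adjusted *P* = 0.0420 by limma). The cytoplasmic actins *Actb* and *Actg1* had log2 fold changes of −1.87 and −2.30 (adjusted *P* = 0.0349 and 0.0122 by limma), and the sarcomeric actins *Acta1* and *Actc1*, which did not pass, had −4.78 and −4.17 (adjusted *P* = 0.113 and 0.238 by limma).

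*Cnn1*, calponin, an actin-binding protein of differentiated smooth muscle, held 16.0, 18.9, 10.3 and 37.8 normalized counts in WT1 to WT4, and 0, 0 and 6.35 in dyW1, dyW2 and the library labelled dyW3. Every WT library was above every dyW library, which held for 31.5% of all tested genes. These levels rest on 3, 7, 5 and 12 reads in WT and on 0, 0 and 13 in dyW. On the log2 scale the difference was −3.33 (SE 0.93, 95% interval −5.45 to −1.22, adjusted *P* = 0.0243 by limma), and exact two-sided permutation gave *P* = 0.0571, the smallest that 4 libraries against 3 allow. Leaving out the library labelled dyW3 gave an adjusted *P* of 0.00295 by limma and a log2 fold change of −4.29, and over each library left out in turn the adjusted *P* reached 0.0853. The log2 fold change was −0.59 after quantile normalization, where the adjusted *P* by limma was 0.806, and the adjusted *P* was 0.110 with equal library totals and 0.439 in limma-voom.

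*Myh11*, the myosin heavy chain that is the most specific of these genes for smooth muscle, held 58.6, 75.5, 24.6 and 85.0 normalized counts in WT1 to WT4. It held 1.95 in dyW1, 0 in dyW2 and 34.2 in the library labelled dyW3, which lies above WT3, so that the groups overlap by this library. *Myh11* had a log2 fold change of −3.58 (SE 1.18, 95% interval −6.27 to −0.90, adjusted *P* = 0.0482 by limma), with *P* = 0.114 by exact two-sided permutation. Without the library labelled dyW3, whose *Lama2* level was above every WT library, the log2 fold change of *Myh11* reached −5.04 (adjusted *P* = 0.00245 by limma). Over each library left out in turn the adjusted *P* by limma reached 0.138. It was 0.182 with equal library totals, 0.236 after quantile normalization, 0.189 in limma-voom and 0.556 once the level of nasal receptor genes was subtracted.

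*Tagln*, transgelin or SM22α, an early marker of smooth muscle, was at the limit of detection. It held 5.33, 5.39, 4.10 and 12.6 normalized counts in WT1 to WT4, from 1, 2, 2 and 4 reads, and 0, 1.14 and 0 in the dyW libraries, from 0, 9 and 0 reads. Its mean was below the filter, and a fit without the filter gave a log2 fold change of −2.50 (SE 0.71, adjusted *P* = 0.0269 by limma), with *P* = 0.0571 by exact two-sided permutation. The single read of WT1 has an exact 95% Poisson interval of 0.135 to 29.7 normalized counts, which reaches from below the dyW2 value to above every WT value. A count of 0 allows up to 3 reads, or 0.292 normalized counts in dyW1, 0.379 in dyW2 and 1.47 in the library labelled dyW3. Intervals and limits cover counting error only, since PCR copies without molecular identifiers are not independent molecules.

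The level of nasal receptor genes also limits what the low WT levels show. Odorant and vomeronasal receptor genes, which are known from sensory neurons of the nose, had a median of 0.640 to 2.52 reads per kb of exon over 1330 genes in the WT libraries, 0 in dyW1 and dyW2, and 1.38 in the library labelled dyW3. *Tagln* stood at 0.389 to 1.04 times this level in the WT libraries, *Myh11* at 0.888 to 2.26 times, *Cnn1* at 1.02 to 2.33 times and *Notch3* at 0.687 to 2.43 times. These 4 were the members that stayed under 3 times the receptor level in every WT library. *Acta2* stood at 4.84 to 182 times, *Mcam* at 1.65 to 4.82 times, and *Lama2* itself at 0.914 to 1.61 times. With this level subtracted in every library, the log2 fold change of *Myh11* was −1.61 (adjusted *P* = 0.556 by limma), and *Cnn1* had too low a mean to be tested, as *Tagln* had without it.

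**Figure D3:**
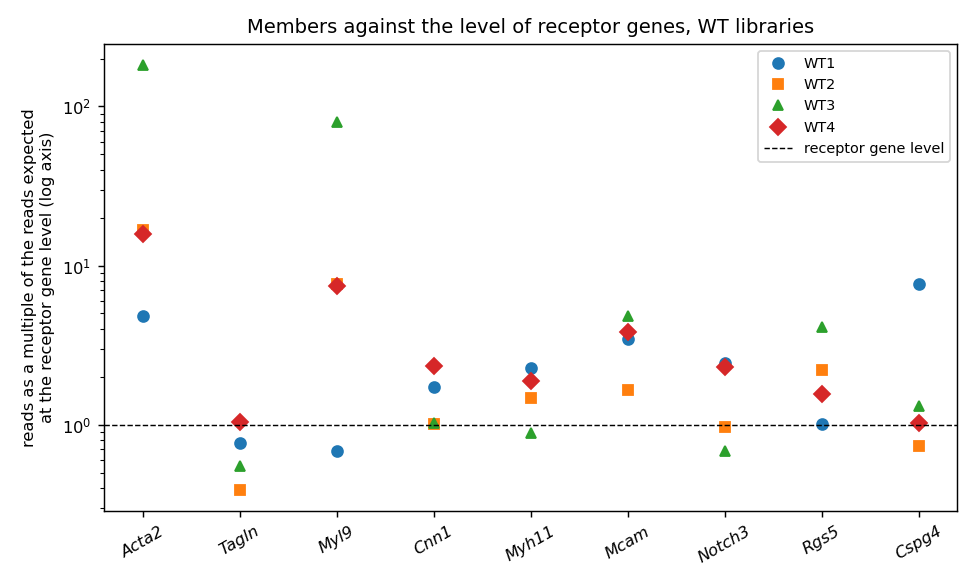
Reads of each member in the 4 WT libraries (1 symbol per library) as a multiple of the reads that the median level of 1330 receptor genes per kb would give for its exon length (vertical axis, log scale, dashed line at 1). *Acta2* reaches 182 times in WT3, whereas *Tagln*, *Cnn1*, *Myh11* and *Notch3* lie between 0.389 and 2.43 times in all 4 libraries.

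*Mcam* (CD146), an adhesion molecule of pericytes, smooth muscle and endothelium, held 42.6, 40.5, 63.6 and 81.8 normalized counts in WT1 to WT4, and 139.6, 135.6 and 138.2 in dyW1, dyW2 and the library labelled dyW3. Every dyW library was above every WT library, which held for 3.28% of all tested genes. The means of the groups were 57.1 ± 19.5 (SD, n = 4) for WT and 138 ± 2.06 (SD, n = 3) for dyW, and the dyW values rest on 1433, 1072 and 283 reads against 8 to 31 in WT. This log2 fold change of 1.32 (SE 0.55, 95% interval 0.07 to 2.57) did not pass the thresholds, with an adjusted *P* = 0.0979 by limma. Exact two-sided permutation of the mean normalized counts gave *P* = 0.0571, the smallest that 4 libraries against 3 allow. The 3 dyW libraries differed greatly in their fiber and *Acta2* levels and yet held nearly equal *Mcam* levels.

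The difference in *Mcam* was positive under all 17 alternatives of processing, with log2 fold changes from 1.13 to 2.46 and limma adjusted *P*-values from 0.0234 to 0.481. The lowest *P*-value arose once every library had an equal total. The genes most nearly proportional to it were Tmem250-ps (SD of the log2 ratio 0.18), the transcription factor gene *Deaf1* (0.24), the splicing regulator gene *Rbfox2* (0.25), *Gtf3c3*, a subunit of TFIIIC (0.25), and the RNA-binding protein gene *Rbms3* (0.26), beside a median of 1.26 over 6105 genes. None of the 5 is a marker of mural cells. The summed level of 10 endothelial genes, a further cell type that carries *Mcam*, was 736 to 875 normalized counts in WT and 807 to 1477 in dyW, with 0 of the 10 at 0 in any library, and its part in the *Mcam* difference was not tested.

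*Notch3*, the Notch receptor of mural cells, held 74.6, 59.3, 22.6 and 122.7 normalized counts in WT1 to WT4, and 51.2, 1.77 and 44.9 in dyW1, dyW2 and the library labelled dyW3. The groups overlap, and dyW2 alone lies below every WT library. *Notch3* had a log2 fold change of −1.68 (SE 1.13, adjusted *P* = 0.282 by limma, *P* = 0.229 by exact two-sided permutation). Without dyW2 it was −0.30, and with the receptor level subtracted it was 1.26.

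*Cspg4*, the proteoglycan NG2 of pericytes, which is also found on glial progenitors and other mesenchymal cells, held 314.5, 59.3, 57.4 and 72.4 normalized counts in WT1 to WT4. It held 119, 18.0 and 8.30 in dyW1, dyW2 and the library labelled dyW3. WT1 is far above the other 3 WT libraries, dyW1 lies between them and WT1, and the other dyW libraries are below all of WT. Its log2 fold change of −1.78 (SE 1.02) did not pass the thresholds (adjusted *P* = 0.211 by limma). Exact two-sided permutation of the mean normalized counts gave *P* = 0.457. The log2 fold change was −2.84 without dyW1 (adjusted *P* = 0.0422 by limma) and −0.99 without the library labelled dyW3 (adjusted *P* = 0.442 by limma). Its sign turned when the receptor level was subtracted (0.46) and in limma-voom (0.10).

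*Rgs5*, a regulator of G-protein signaling enriched in pericytes, held 21.3, 91.7, 92.3 and 56.6 normalized counts in WT1 to WT4, and 0, 683 and 3.42 in dyW1, dyW2 and the library labelled dyW3. The highest and the 2 lowest of the 7 libraries were thus all dyW. With such a spread, the log2 fold change of −2.0 (SE 1.93) did not pass the thresholds (adjusted *P* = 0.456 by limma). Leaving out dyW2 moved it to −4.78 and leaving out dyW1 to −0.07. The mean normalized count ran the other way, at 65.5 in WT and 229 in dyW. Exact two-sided permutation of that difference in means gave *P* = 0.857. The dyW2 value rests on 5401 reads, and no read of *Rgs5* was counted in dyW1.

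Of 13 further pericyte genes, 5 were above every WT library in dyW2 and 4, *Pdgfrb*, *Vtn*, *Foxs1* and *P2ry14*, were below every WT library, against 15.4% and 58.5% of all tested genes. Besides *Rgs4* and *Abcc9*, those above were *Higd1b* at 72.6 normalized counts against 5.33 to 15.7 in WT, *Gja4*, a gap junction protein, at 70.3 against 10.7 to 28.7, and *Kcnj8*, the pore of a potassium channel of mural cells, at 58.7 against 16.0 to 41.0. *Abcc9*, the partner of *Kcnj8* in that channel, was at 123 in dyW2 against 59.5 to 113 in WT. In dyW1, 2 of the 13 were above every WT library and 9 below (14.7% and 53.1% of all tested genes), and in the library labelled dyW3 these counts were 1 and 8 (22.9% and 48.2%). *Higd1b* and *Kcnj8* were at 0 in the other dyW libraries. The pericyte receptor gene *Pdgfrb* followed another order, with 127 in dyW1, 10.1 in dyW2 and 0 in the library labelled dyW3, against 26.7 to 40.9 in WT. These genes were picked after their values were seen.

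**Figure D4:**
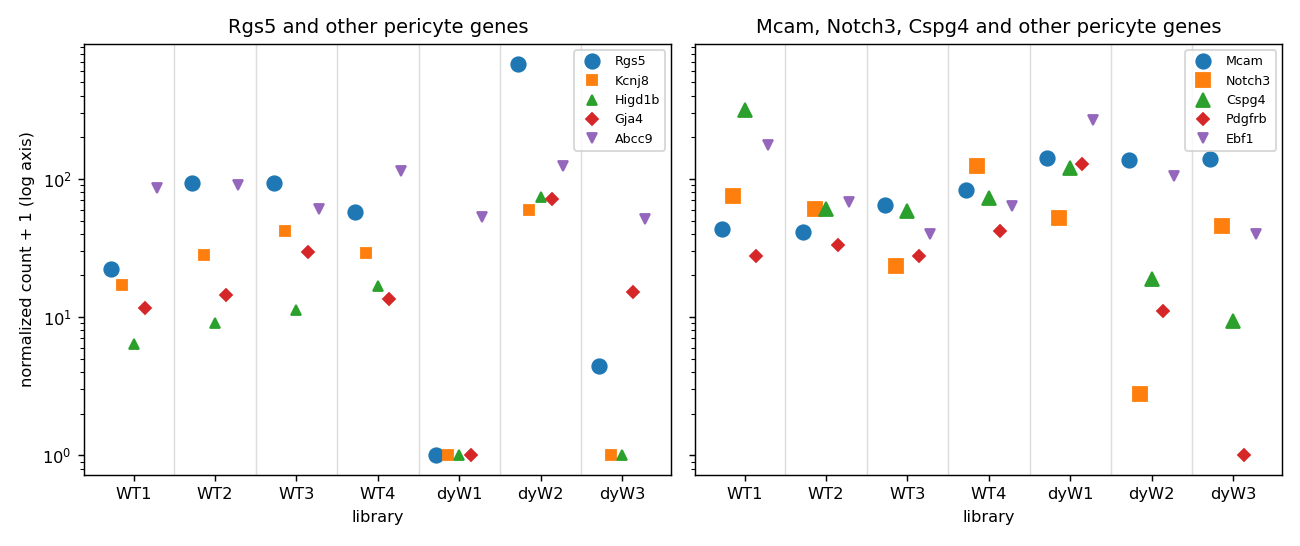
Normalized count plus 1 (vertical axis, log scale, shared by both panels) in each of the 7 libraries for *Rgs5* with 4 other pericyte genes (left) and for *Mcam*, *Notch3* and *Cspg4* with *Pdgfrb* and *Ebf1* (right), large symbols for members, 1 point per gene and library. *Rgs5*, *Higd1b*, *Gja4* and *Kcnj8* are highest in dyW2, whereas *Pdgfrb* and *Ebf1* are highest in dyW1, and *Mcam* is nearly level over the 3 dyW libraries.

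The 3 libraries labelled dyW thus held different members of the group. A read was found for all 9 members in each WT library, where 81.0% to 93.9% of 31531 genes had one. It was found for 5 members in dyW1, 7 in dyW2 and 8 in the library labelled dyW3, where 56.4%, 45.1% and 61.4% of all genes had one. Per kb of exon, *Mcam* made up 70.7% of the summed level of the members in dyW1, with 18.2% for *Cspg4* and 0.745% for the 5 contractile genes together. In dyW2, *Myl9* made up 35.5%, *Acta2* 30.8% and *Rgs5* 24.8%. In the library labelled dyW3, *Acta2* made up 48.2% and *Myl9* 36.8%, and this was the dyW library with the highest *Myh11* and the only one with *Cnn1* reads. *Acta2* was the leading member in WT2, WT3 and WT4, with 42.5% to 66.2%, and *Cspg4* in WT1, with 31.0%.

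**Figure D5:**
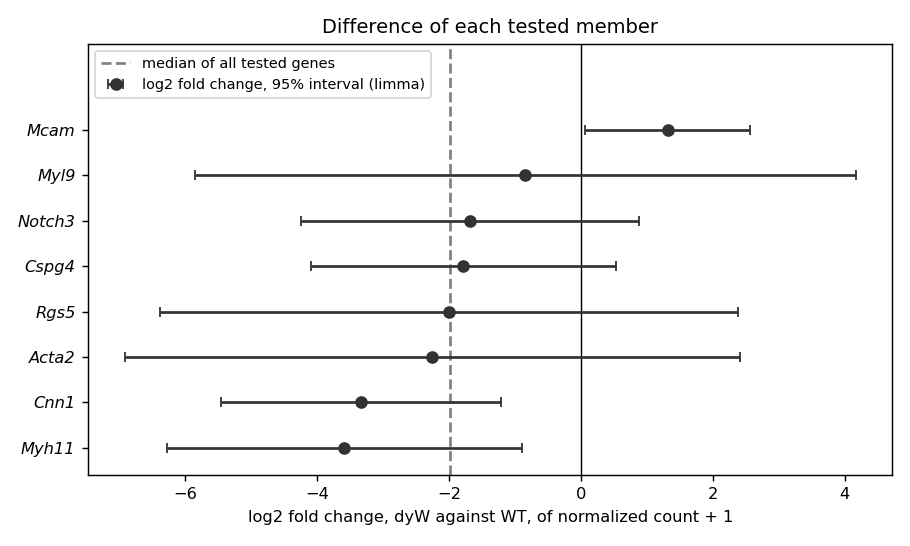
Log2 fold change of dyW against WT on the log2(normalized count + 1) scale (horizontal axis) for the 8 tested members, as points with 95% intervals from limma, beside 0 (solid line) and the median of all 25791 tested genes, −1.99 (dashed line). The intervals of *Cnn1* and *Myh11* lie below 0 and that of *Mcam* above 0 before adjustment, and those of the other 5 members span both lines.

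Compared per kb of exon, *Acta2* was the highest member in WT at 222 ± 297 normalized counts per kb (SD, n = 4) and *Myl9* the next at 97.0 ± 130. *Mcam* (15.8 ± 5.39), *Rgs5* (10.7 ± 5.50), *Cspg4* (10.5 ± 10.5), *Myh11* (8.02 ± 3.49), *Notch3* (7.75 ± 4.61), *Cnn1* (7.57 ± 4.35) and *Tagln* (3.35 ± 1.89) followed. In dyW the order of the mean levels per kb was *Acta2* at 101 ± 88.4 (SD, n = 3), *Myl9* at 94.9 ± 83.9, *Mcam* at 38.1 ± 0.569, *Rgs5* at 37.2 ± 64.0, *Cspg4* at 4.05 ± 5.14, *Notch3* at 3.62 ± 2.99, *Myh11* at 1.58 ± 2.53, *Cnn1* at 0.773 ± 1.34 and *Tagln* at 0.186 ± 0.322. The ranges of every pair of neighbors overlap in both orders. Library by library, *Acta2* was above *Myl9* and *Cnn1* above *Tagln* in 4 of 4 WT libraries and *Notch3* above *Myh11* in 3 of 3 dyW libraries, while for every other pair of neighbors at least 1 library was tied or went the other way.

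Among 15 further genes of the smooth muscle contractile apparatus that were measured and tested, 1 was called lower and 0 higher by limma, against 18.7% and 0.0659% of all tested genes. By limma-voom 1 was called lower and 1 higher (*Cald1*), against 20.6% and 0.264% of all tested genes. The median log2 fold change of the 15 in the limma fit was −0.36, against −1.99 for all genes. The gene called lower was *Lmod1*, leiomodin, an actin nucleator of smooth muscle. It held 5.33, 13.5, 4.10 and 15.7 normalized counts in WT1 to WT4 from 13 reads in all, and 0 in each dyW library, at least 13.6-fold lower against a floor of 3 reads per library (limma adjusted *P*-value of 0.00701), but its WT levels were only 0.275 to 0.651 times the receptor level. With the receptor level subtracted, 0 genes of the whole table were called, and 4348 had an unadjusted *P*-value under 0.05. *Cald1*, caldesmon, whose forms are also made by non-muscle cells, was higher in dyW at the looser threshold, with 85.3 to 285 normalized counts in WT and 829, 658 and 511 in the dyW libraries (log2 fold change 1.98, SE 0.55, limma adjusted *P*-value of 0.0232). The summed level of 8 fibroblast genes was also higher in every dyW library, with 4180 to 14966 normalized counts in WT and 21951 to 33379 in dyW. In dyW1 this sum came mostly from *Col1a1* (8467) and *Col1a2* (12046), and 3 of the 8 genes were above every WT library there, against 14.7% of all tested genes, whereas *Col3a1* (232) and *Dpt* (0) were below every WT library. In dyW2 and the library labelled dyW3, 7 and 6 of the 8 were above every WT library, against 15.4% and 22.9% of all tested genes, and 0 were below. The part of fibroblasts in the *Cald1* and *Mcam* differences was not tested. *Lmod1* was not called without dyW1, when the list had 0 calls, against 7.76% of all genes in that fit called lower. Nor was it called without the library labelled dyW3, when *Synpo2* was the 1 gene of the list called, against 25.8%. After quantile normalization the log2 fold change of *Lmod1* was 0.0049 (adjusted *P* = 0.997 by limma).

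Of 9 tested genes that regulate smooth muscle genes, 0 were called in either direction by limma or limma-voom, 2 had an unadjusted *P*-value under 0.05 (44.3% of all tested genes did), and the median log2 fold change was −0.59. *Myocd*, myocardin, held 32.0 to 48.5 normalized counts in WT, 0.682 in dyW1 and 0.379 in dyW2, but 141.6 in the library labelled dyW3, the library that also held *Cnn1* and the most *Myh11* of its group. *Srf* held 12.3 to 42.6 in WT, 20.8 in dyW1 and 0 in both other dyW libraries. Without the library labelled dyW3, 1 of the 9 was called lower, *Myocd*, against 25.8% of all genes in that fit, and without dyW1 2 were, *Srf* and *Foxc1*, against 7.76%. *Mef2c*, *Tead1* and *Klf4*, the 3 with the highest mean level, had log2 fold changes of 1.14, 0.78 and 2.06, none past the thresholds (limma adjusted *P*-values of 0.283, 0.466 and 0.134).

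The further pericyte list numbered 12 tested genes, and limma called 1 of them lower, against 18.7% of all tested genes, and 0 higher, beside a median log2 fold change of −1.31. The gene called lower was *Vtn*, vitronectin, with 5.33 to 29.7 normalized counts in WT and 0 in each dyW library, at least 21.0-fold lower (limma adjusted *P*-value of 0.00507), from WT levels that were 0.494 to 1.38 times the receptor level. *Foxs1*, which was not tested because of its low mean, was likewise at 0 in each dyW library and held 3.15 to 10.8 normalized counts in WT. Without dyW1 the list had 0 calls, against 7.76% of all genes in that fit called lower. After quantile normalization the log2 fold change of *Vtn* was −0.61 (adjusted *P* = 0.707 by limma).

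The Notch pathway numbered 11 tested genes besides *Notch3*, and limma called 2 of them lower, a share near the 18.7% of all tested genes, and 0 higher, beside a median log2 fold change of −0.55. *Jag2*, a ligand, held 42.6, 59.3, 24.6 and 103.8 normalized counts in WT1 to WT4 and 0 in each dyW library, at least 80.9-fold lower (limma adjusted *P*-value of 0.00372), with WT levels 0.951 to 2.48 times the receptor level. *Hey2*, a target of Notch in arteries, held 5.33 to 34.6 in WT and 0.0974, 0 and 0 in dyW, a log2 fold change of −4.08 (SE 0.80, limma adjusted *P*-value of 0.00540), with WT levels 0.319 to 1.19 times the receptor level. The targets *Hes1* and *Hey1* went the other way without passing the test, *Hes1* with 21.3 to 72.8 normalized counts in WT and 139.1 to 185 in dyW, and *Hey1* with 3.15 to 18.9 and 43.2 to 50.8 (limma adjusted *P*-values of 0.0620 and 0.0787). Without dyW1, *Jag2* was the 1 gene of the 11 still called, against 7.76% of all genes in that fit called lower. After quantile normalization the log2 fold changes of *Jag2* and *Hey2* were −3.74 and −0.92, neither of them called (adjusted *P* = 0.0872 and 0.649 by limma).

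Of 9 genes that recruit or signal to mural cells, 0 were called in either direction by limma or limma-voom, 3 had an unadjusted *P*-value under 0.05 (44.3% of all tested genes did), and the median log2 fold change was 1.33. *Tgfbr1*, a TGF-β receptor, was higher in dyW at the looser threshold, with 51.3 to 101.3 normalized counts in WT and 366, 149 and 287 in the dyW libraries (log2 fold change 1.89, SE 0.57, limma adjusted *P*-value of 0.0344). *Tgfbr2*, its partner, had a log2 fold change of −0.06 (limma adjusted *P*-value of 0.944). *Pdgfb*, the ligand that draws pericytes to vessels, held 16.4 to 117 normalized counts in WT and 6.63, 19.6 and 38.1 in dyW (log2 fold change −1.54, limma adjusted *P*-value of 0.218), and *Tek*, the angiopoietin receptor, had a log2 fold change of 2.19 (limma adjusted *P*-value of 0.0748). Without dyW1, *Tgfb1* was the 1 gene of the 9 called, and it was lower, against 7.76% of all genes in that fit called lower.

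Of 10 endothelial, 8 fibroblast, 8 skeletal fiber, 4 myogenic progenitor and 6 macrophage genes, 0 were called by limma in either direction, against 18.7% of all tested genes lower and 0.0659% higher, and limma-voom called 1, a fibroblast gene that was higher, against 0.264% of all tested genes. Unadjusted *P*-values under 0.05 were found for 2, 2, 2, 0 and 1 of them in the same order, against 44.3% of all tested genes. The 3 most abundant endothelial genes, *Pecam1*, *Emcn* and *Kdr*, had log2 fold changes of −0.57, 1.88 and 0.67 (limma adjusted *P*-values of 0.482, 0.0625 and 0.386). The fibroblast collagens *Col1a1*, *Col1a2* and *Col3a1* had log2 fold changes of 1.71, 2.10 and 0.43, and the fiber genes *Acta1*, *Mylpf* and *Myl1* had −4.78, −3.03 and −2.46. Those of the progenitor genes *Myog*, *Myf5* and *Myod1* were −1.17, 2.21 and −1.49. *Myog* was at 0 in dyW1, and *Myod1* in dyW1 and the library labelled dyW3. Their mean normalized counts were not lower in dyW, at 187 against 154 in WT for *Myog* and 20.7 against 19.6 for *Myod1*. Without the library labelled dyW3, *Vwf* of the endothelial and *Ptprc*, *Adgre1* and *C1qa* of the macrophage genes were called lower, 1 of 10 and 3 of 6 against 25.8% of all genes tested in that fit. The summed level of the macrophage genes was 822 normalized counts in the library labelled dyW3, of which *Mrc1* gave 554, against 58.1 and 87.8 in the other dyW libraries, where 4 and 2 of the 6 markers were at 0, and 133 to 302 in WT. Their 3 most abundant genes, *Mrc1*, *Ptprc* and *Csf1r*, had log2 fold changes of 0.04, −4.26 and −2.29.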

How the data were processed

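The authors used Cutadapt for trimming, RNA STAR for alignment (GRCm39), FeatureCounts for counting uniquely mapped reads per gene, and DESeq2. Tool versions and the annotation release are not given in the sources used here. The deposited values are read counts divided by 1 size factor per library, another unit than raw counts, and every value was a whole multiple of 1 step per library within 0.1 reads, which gave the reads. The deposited columns of the authors' own comparison (log2 fold changes and *P*-values) were not used.

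Groups followed the genotype labels. Genes with a mean of at least 5 were compared on log2(normalized count + 1) by a trended empirical Bayes fit (limma 3.58.1, R 4.3.3) and adjusted by Benjamini-Hochberg over 25791 genes, a scale that understates changes of low genes. Called means an adjusted *P*-value under 0.01 together with a log2 fold change beyond 1.5. Single genes were also compared by exact permutation over 35 assignments of the libraries, with scipy 1.17.1 in Python 3.11.15. The permuted statistic was the difference in mean normalized count, not the log2 fold change, and the 2 can differ in sign. The smallest *P* that exact two-sided permutation allows here is 0.0571, so it could not fall under 0.05 for any gene. Exon lengths came from GENCODE release 39, which holds 99.2% of the identifiers. The fit was tested on simulated data.

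The members, the gene lists and the tests were chosen with earlier results of these data known. Named genes were the members, *Lama2*, the actin genes, of each list those called or else the 3 of highest mean, and the 5 genes most proportional to the leading contractile and mural member. Further genes were named with their values in view. Alternatives comprised a pseudocount of 0.1 or of 10, a filter at 0 or at a mean of 50, equal library totals, quantile normalization, a replicate block, each library left out, and other thresholds. Limma-voom, subtraction of the receptor level, and leaving out dyW1 and dyW3 together were chosen after seeing the data. Results for some genes of the lists are not reported here.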

Additional observations from a re-analysis of the deposited data

Results flagged for a closer look

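In the WT group, 3 members had a library far from the other 3 by Dixon's criterion for 4 samples, in which the gap to the nearest library exceeds the 95% critical value as a share of the range. *Acta2* was highest in WT3 at 2137 normalized counts (gap 0.850 of the range). *Tagln* was highest in WT4 at 12.6 normalized counts (0.848), a value of 4 reads against 1 or 2 in the other WT libraries. *Cspg4* was highest in WT1 at 314.5 normalized counts (0.942), a value of 59 reads in the library with the fewest reads. Chance marks about 1 in 20 groups, and 9 groups were examined. The 3 libraries differ between these genes, and the cause was not tested.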

How the results depend on the processing

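Each tested member was refitted under up to 17 alternatives, 133 values in all. Under 8 of the 17 (a pseudocount of 10, a mean of at least 50, equal library totals, the replicate block, the receptor level subtracted, and WT2, WT4 or dyW2 left out) 0 genes of the whole table were called, so the 61 member values there could not pass the threshold and say nothing of stability. Over all 133, 119 kept their direction and their side of the threshold, 59 of them under those 8, 5 newly passed it in the same direction and 9 changed sign, 1 of which, that of *Rgs5*, passed it too. With each library left out in turn, the number of members called lower ranged from 0 to 2, the 2 being *Cnn1* and *Myh11* without the library labelled dyW3 (2 of 8 against 25.8% of all genes tested in that fit), and the number called higher was 0. An adjusted *P*-value under 0.05 gave 2 lower. With dyW1 and the library labelled dyW3 both left out, where dyW2 is assumed to vary like the WT libraries, 3 were called lower (*Cnn1*, *Myh11*, *Notch3*) and 1 higher (*Rgs5*), against 26.7% and 0.621% of all genes in that fit, and the log2 fold change was 3.57 for *Rgs5*, 0.40 for *Acta2* and 2.11 for *Myl9*. The sign also changed for *Acta2* without dyW1 (0.53), for *Myl9* without WT3 (0.15) and without dyW1 (1.94), for *Notch3* (1.26) and *Cspg4* (0.46) with the receptor level subtracted, and for *Cspg4* in limma-voom (0.10). Leave-one-out log2 fold changes ranged from −3.71 to 0.53 for *Acta2* and from −2.32 to 1.94 for *Myl9*. Relative to the median of all genes, *Myl9*, *Notch3* and *Cspg4* were above it with the deposited scaling (by 1.15, 0.30 and 0.21) and below it after quantile normalization (by −0.50, −0.90 and −1.73). Of all tested genes, 4830 were called lower and 17 higher, and the counts ranged from 0 to 7169 and from 0 to 167 over the alternatives.

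With dyW1 left out, 7.76% of all genes tested in that fit were called lower. The lists gave 0 calls for contractile and pericyte genes, and 1 of 11 for the Notch pathway (*Jag2*). Of 9 regulators 2 (*Srf*, *Foxc1*) and of 9 recruitment genes 1 (*Tgfb1*) were called lower. Without the library labelled dyW3, *Synpo2* was called in place of *Lmod1* among the 15 further contractile genes, beside the members *Cnn1* and *Myh11*. In that fit 25.8% of all genes were called lower.

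With the replicate block, over the 3 numbers that both groups share, 0 members were called lower and 0 higher, but so were 0 of all 24289 genes tested (7925 at an unadjusted *P*-value under 0.05 in limma). Same-numbered libraries had correlations of 0.147, −0.049 and −0.088 between their deviations from the group means. No pairing by number was evident, but 3 such weak correlations cannot exclude one. Not every library correlated best with its own number. The planned edgeR and DESeq2 tests were not run, and limma-voom on the recovered reads was run in their place. The causes of these changes were not tested.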
